A study of Homo sapiens with 4 samples.

Results

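Integrins are the cell surface receptors by which cells hold on to the extracellular matrix, and focal adhesions are the plaques that couple them to actin filaments. Their mRNA was measured by RNA-Seq in HGC-27 cells, an established line from an undifferentiated human gastric carcinoma, after knockdown of USP47, a deubiquitinase that the study links to stabilization of the EMT factor SNAI1. The set comprised 37 genes: 20 integrin subunits (12 alpha, 8 beta) and 17 adaptors and linkers of the focal adhesion. They were chosen by name, with earlier results of these data known. Each of the 37 matched exactly 1 of the 63568 gene identifiers in the files. The comparison had 2 libraries from cells with control shRNA and 2 from cells with USP47 shRNA. All 4 came from cultures infected with lentivirus and selected with puromycin, and the libraries of a group are labelled as biological duplicates. Whether both knockdown libraries carry the same USP47 shRNA is not given in the sources used here, so the spread between them can include a difference between shRNAs.

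An integrin is a pair of 1 alpha and 1 beta subunit, and the alpha subunit largely sets the ligand. ITGB1 pairs with most alpha subunits of this set, whereas ITGAV also pairs with ITGB3, ITGB5, ITGB6 and ITGB8, ITGA4 also with ITGB7, and ITGA6 also with ITGB4. Talins and kindlins bind the beta tail and switch the receptor on, the complex of ILK, PINCH (LIMS1) and parvin is recruited next, FAK (PTK2), paxillin (PXN) and p130Cas (BCAR1) relay signals, and vinculin, zyxin, tensins and alpha-actinins link the plaque to actin.

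The libraries held between 15649899 and 20140273 counts. USP47 itself was counted 1357 and 1297 times with control shRNA and 749 and 309 times with USP47 shRNA, which left 49.3% and 29.5% of the control mean after scaling. Its log2 fold change was -1.34 (standard error 0.21, edgeR's quasi-likelihood test, adjusted p = 0.00362), and 41.4% of its annotated exon bases are shared with DKK3 on the other strand. The control libraries correlated at 0.996 across genes on the log2(CPM + 1) scale and the knockdown libraries at 0.991. Among cell type markers, 5 of 7 epithelial genes were at 20 counts or fewer in every library, including the defining keratins KRT18 and KRT19 at 0 or 1 count, and the summed epithelial level was 1.61 to 1.88 TPM in control and 1.19 to 1.28 TPM in knockdown libraries. The defining epithelial markers were thus nearly absent from this carcinoma line. EPCAM was called lower, at 12 and 11 counts in control and 3 and 3 in knockdown libraries (edgeR adjusted p = 0.0418). CDH1, at 13 and 12 counts in control and 28 and 8 in knockdown libraries, had the opposite sign and was not called. Its log2 fold change was 0.56 (edgeR adjusted p = 0.414). KRT8 and CLDN4 were not called either, at -0.46 and -0.34 (edgeR adjusted p = 0.485 and 0.473). Among 3 mesenchymal markers, VIM stood at 137 and 122 TPM in control and 103 and 110 TPM in knockdown libraries. Its groups overlapped by CPM, at 468 and 471 in control and 353 and 502 in knockdown libraries, and it was not called. CDH2 was at 3 to 10 counts and was not tested, and FN1 fell. The summed level of 8 leukocyte markers was 3.66 to 4.66 TPM in control and 2.44 to 4.01 TPM in knockdown libraries, that of 3 platelet markers 0.601 to 0.789 and 0.368 to 0.430 TPM, and that of the endothelial markers 0.0173 to 0.0812 and 0.0398 to 0.0533 TPM. The part of these markers in the results was not tested.

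Levels between genes were described by the deposited TPM, which divides by exon length. Of the 37 genes, 14 had a mean control level under 1 TPM, 4 lay from 1 to under 5 TPM, 13 from 5 to under 20 TPM, and 6 were at 20 TPM or more. The 6 were VCL, ITGB1, TLN1, ACTN4, ACTN1 and ITGA5. VCL stood at 74.0 and 64.3 TPM in the control libraries and ITGB1 at 68.9 and 55.7 TPM, so the order of these neighbours did not exceed their spread. The alpha subunits were led by ITGA5, the fibronectin receptor, at 27.5 and 26.7 TPM, ahead of ITGAV at 19.5 and 16.9 TPM and ITGA4 at 16.2 and 13.2 TPM. These 3 control ranges did not overlap. ITGB5 followed at 8.41 and 8.42 TPM and ITGA3 at 5.16 and 5.10 TPM. ITGB7 at 4.37 and 4.06 TPM stood above ITGA6 at 3.78 and 3.24 TPM, while ITGA6 and ITGA7 (3.47 and 2.82 TPM) overlapped. All other subunits were under 1 TPM in every library.

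**Figure D1:**
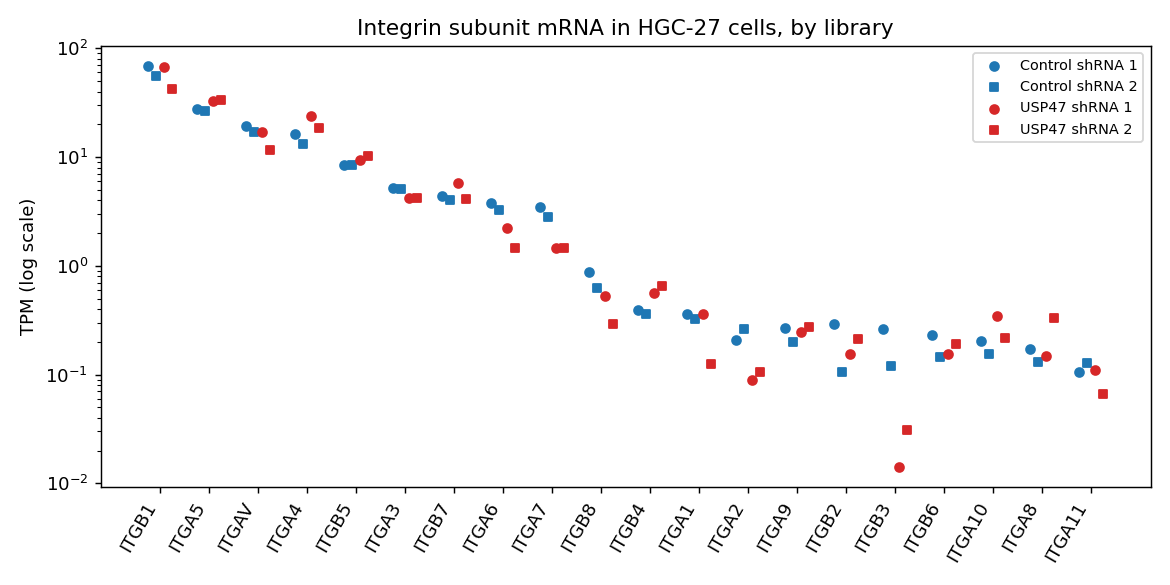
TPM of the 20 integrin subunits on a log axis, ordered by mean control level, with blue for control shRNA, red for USP47 shRNA, circles for replicate 1 and squares for replicate 2. ITGB1, ITGA5, ITGAV and ITGA4 are above 10 TPM in every library. Both red points lie below both blue ones for ITGA6, ITGA7 and ITGB8, and also for ITGA2, ITGA3, ITGAV and ITGB3, which were not called or not tested. The groups of ITGA3 overlap by CPM.

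After the filter on low counts, 35 of the 37 genes were tested among 21932 genes, and 8 passed an adjusted p of 0.05. ITGA4, PXN and BCAR1 rose, and ITGA6, ITGA7, ITGB8, FERMT2 and TNS3 fell. That was 22.9% of the genes tested in the set, beside 16.1% of all genes tested, of which 6.52% were called higher and 9.56% lower. The median log2 fold change was 0.064 in the set and -0.0083 over all genes, with 20 of the set above 0 and 15 below. The set therefore did not move one way. CPM (counts scaled to library size after TMM) did not overlap between groups for 13 genes higher and 10 lower in the set, beside 29.3% higher and 31.7% lower of all genes, in total 61.0%. DESeq2's Wald test, which called 13.3% of the genes it adjusted, called 7 of these 8 genes and no other of the set, and a fit with the replicate number as a block, which called 33.8% of genes, called 20 of the set. Fits that left out 1 library called 5.25% of all genes without control replicate 1, 6.22% without control replicate 2, 32.0% without USP47 shRNA replicate 1 and 27.4% without USP47 shRNA replicate 2, and calls of the set under these fits are to be read against those shares. In bulk RNA, fewer cells with a transcript and less of it per cell cannot be told apart.

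**Figure D2:**
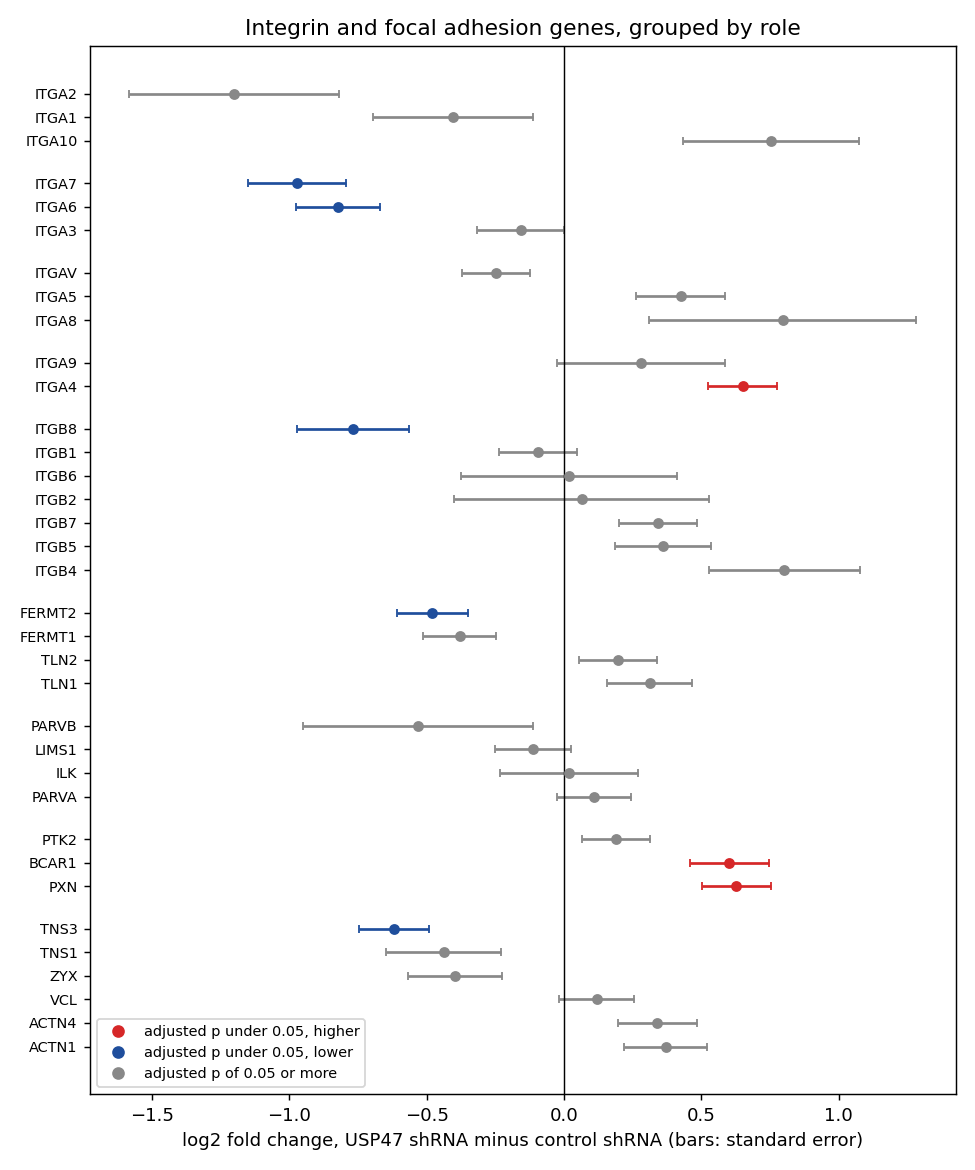
Log2 fold change (USP47 shRNA minus control shRNA) of the 35 tested genes with bars of 1 standard error, in blocks from top to bottom: collagen-binding, laminin-binding, RGD-binding, and ITGA4 and ITGA9 alpha subunits, beta subunits, activators, ILK complex, signalling scaffold, actin linkers. Red marks the 3 genes that rose and blue the 5 that fell; the 3 laminin-binding alpha subunits are all left of 0 and the 3 scaffold genes all right of it.

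Of the 3 laminin-binding alpha subunits, ITGA6 and ITGA7 fell and ITGA3 did not pass the test. ITGA6, whose pairs with ITGB1 and ITGB4 anchor epithelial cells to the basement membrane, lies at chr2:173292082-173371187 of GRCh37 on the plus strand. It was counted 295 and 332 times in control libraries and 216 and 128 times in knockdown libraries, or 17.4 and 16.9 CPM against 10.4 and 8.92 CPM. Both knockdown values were below both control values, and the means were 17.2 ± 0.332 and 9.65 ± 1.04 CPM (SD, n = 2). The log2 fold change was -0.82 (standard error 0.15, edgeR adjusted p = 0.00736). ITGA7, the laminin receptor subunit best known from muscle (chr12:56078352-56110188, minus strand), was counted 258 and 275 times in control and 134 and 123 times in knockdown libraries. Its CPM of 15.2 and 14.0 against 6.44 and 8.57 did not overlap, and it had the most negative fold change among the 8 called genes, at -0.97 (standard error 0.18, edgeR adjusted p = 0.00665). ITGA3, which pairs with ITGB1 as a receptor for epithelial laminins, stood at 34.7 and 39.0 CPM in control and 28.4 and 37.9 CPM in knockdown libraries. Its groups overlapped (log2 fold change -0.16, standard error 0.16, edgeR adjusted p = 0.527). Without control replicate 1, ITGA6 had an adjusted p of 0.0521 in edgeR, the value of ITGA3 was 0.0182 without USP47 shRNA replicate 2, with a log2 fold change that turned to 0.047 without USP47 shRNA replicate 1, while ITGA7 was called in each of 12 other fits at the same threshold.

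The promoter of ITGA6 is shown with those of TNS3 and PXN because they hold the E-box word CAGGTG, which SNAI1 can bind, and because these genes changed in different directions. RefSeq (GRCh38.p14) gave 52 windows, from 250 bases before to 50 after a transcript start, for 28 of the 37 genes. CAGGTG, searched on both strands, was in 11 of these 52 windows (21.2%) and in 20.6% of 35116 windows of all genes. Among the called genes, 7 had windows (ITGA4, ITGA6, ITGB8, PXN, FERMT2, BCAR1, TNS3), and 4 of these 7 held the word: ITGA6 and TNS3, which fell, and PXN and BCAR1, which rose. Counted in the same way over all genes with windows, 6571 of 27305 held it, and genes differ in how many windows they have. By window it was in 5 of 15 of the called genes (33.3%). The AP-1 word TGANTCA was in 7.69% of the set's windows and in 7.71% of all windows. Capitals mark CAGGTG or its reverse complement, and each sequence is printed 5′ to 3′ on the strand of its gene. The ITGA6 window is chr2:172427086-172427385 (plus strand, words starting at -136 and -46 from the start), the TNS3 window chr7:47582062-47582361 (minus strand, word at -125) and the PXN window chr12:120265681-120265980 (minus strand, word at -213). ITGA6 has another window without the word, TNS3 has 2 such windows and PXN 1. A matching word describes the sequence and is not evidence of binding.
ITGA6: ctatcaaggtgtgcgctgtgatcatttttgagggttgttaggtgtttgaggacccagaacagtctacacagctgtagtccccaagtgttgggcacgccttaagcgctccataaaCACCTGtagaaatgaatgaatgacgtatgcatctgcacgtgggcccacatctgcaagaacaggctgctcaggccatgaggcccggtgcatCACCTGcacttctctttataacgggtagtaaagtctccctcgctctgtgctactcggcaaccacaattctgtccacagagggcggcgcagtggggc
TNS3: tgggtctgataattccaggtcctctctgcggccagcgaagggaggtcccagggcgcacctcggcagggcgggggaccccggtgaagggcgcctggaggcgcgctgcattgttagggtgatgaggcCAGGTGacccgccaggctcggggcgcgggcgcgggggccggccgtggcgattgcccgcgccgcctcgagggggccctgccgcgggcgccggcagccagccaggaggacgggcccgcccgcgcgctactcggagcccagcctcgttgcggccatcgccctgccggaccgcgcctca
PXN: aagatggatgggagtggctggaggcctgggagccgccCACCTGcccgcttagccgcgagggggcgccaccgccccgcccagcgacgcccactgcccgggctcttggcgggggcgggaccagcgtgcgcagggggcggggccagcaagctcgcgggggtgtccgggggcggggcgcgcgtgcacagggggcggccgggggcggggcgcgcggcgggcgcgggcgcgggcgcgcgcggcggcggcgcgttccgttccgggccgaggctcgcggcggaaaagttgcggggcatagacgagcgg

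ITGA4 rose. It pairs with ITGB1 or ITGB7 and binds VCAM1 and an alternatively spliced part of fibronectin, and it is best known from leukocytes. It was counted 1489 and 1593 times with control shRNA and 2699 and 1942 times with USP47 shRNA, or 87.8 and 81.2 CPM against 129.8 and 135.3 CPM. Both knockdown values exceeded both control values, with means of 84.5 ± 4.66 and 132.5 ± 3.91 CPM (SD, n = 2) and a log2 fold change of 0.65 (standard error 0.13, edgeR adjusted p = 0.00849). Without control replicate 1 its adjusted p was 0.124 and without control replicate 2 it was 0.171 in edgeR. The gene (chr2:182321929-182403667 of GRCh37, plus strand) shares 26.4% of its annotated exon bases with CERKL on the other strand. Whether the counting used strand is not given in the sources used here. The deposited values give ITGA4 an exon length of 7901 bases against 10654 annotated, so the counted gene model may hold less of this overlap. CERKL was counted 234 and 229 times in control and 372 and 251 times in knockdown libraries, and did not pass the test (log2 fold change 0.48, edgeR adjusted p = 0.0565). The leukocyte marker PTPRC was at 8 to 12 counts in every library. ITGA9, the closest relative of ITGA4 in ligand choice, was at 1.53 and 1.27 CPM in control and 1.39 and 2.09 CPM in knockdown libraries, and its groups overlapped.

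The RGD-binding alpha subunits, which recognise the RGD sequence of fibronectin and vitronectin, did not pass the test in any of 3 cases. ITGA5 stood at 143 and 158 CPM in control and 171 and 233 CPM in knockdown libraries, without overlap, and its log2 fold change was 0.42 (standard error 0.16, edgeR adjusted p = 0.101). ITGAV was at 110 and 108 CPM in control and 95.4 and 87.9 CPM in knockdown libraries (log2 fold change -0.25, standard error 0.12, edgeR adjusted p = 0.198). The 2 main RGD receptors thus had fold changes of opposite sign that did not reach the threshold. ITGA8, a receptor subunit for nephronectin, was low, with 0.884 and 0.765 CPM in control and 0.769 and 2.30 CPM in knockdown libraries. Its higher level rested on knockdown replicate 2. Without USP47 shRNA replicate 1, where 32.0% of all genes were called, all 3 were called, with edgeR adjusted p of 1.9e-07 for ITGA5, 0.0378 for ITGAV and 0.00106 for ITGA8.

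The collagen-binding alpha subunits were each under 0.5 TPM in every library, and none of the 3 tested was called. ITGA2, the alpha subunit of the main collagen I receptor of epithelia and platelets, was counted 19 and 32 times in control and 10 and 11 times in knockdown libraries. Its log2 fold change of -1.20 (standard error 0.38) was the most negative among the 35 tested genes, with an edgeR adjusted p of 0.0572. The groups did not overlap but rested on few counts, and the gene passed at 0.0376 when only genes with at least 10 counts in every library were tested, and at 0.00687 without USP47 shRNA replicate 2. ITGA1, counted 78 and 92 times in control and 96 and 31 times in knockdown libraries, was at 4.60 and 4.69 CPM in control and 4.62 and 2.16 CPM in knockdown libraries, and ITGA10 at 0.884 and 0.765 against 1.49 and 1.25 CPM. ITGA1 had an adjusted p of 0.365 with all libraries and 0.00096 without USP47 shRNA replicate 1, both from edgeR. ITGA11 was counted 7 and 11 times in control and 9 and 5 times in knockdown libraries and was not tested.

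Because receptors draw on a shared pool of beta subunits, the alpha subunits were also set against their own sum. The summed alpha TPM was 76.9 and 69.1 in control and 82.6 and 71.8 in knockdown libraries, so the groups overlapped on this scale. 7SL RNA and 1 unnamed gene took 49.6% and 52.9% of TPM in control and 50.7% and 56.5% in knockdown libraries. TPM moves with that share, and the sum was not compared after TMM scaling. Within the summed alpha TPM, the laminin-binding subunits took 16.1% and 16.1% in control and 9.58% and 9.88% in knockdown libraries. ITGA4 took 21.0% and 19.1% in control and 28.8% and 25.9% in knockdown libraries. ITGAV went from 25.3% and 24.4% to 20.4% and 16.2%, and ITGA5 from 35.8% and 38.7% to 39.6% and 46.5%. None of these 4 shares overlapped between groups. Taken singly, the share of every alpha subunit except ITGA8 and ITGA9 was also without overlap, so this did not set the 4 apart. As shares of 1 sum, they are not independent of each other, and they were not tested. The ratio of ITGA6 to ITGA3 TPM, 0.732 and 0.635 in control, was 0.535 and 0.344 in knockdown libraries, whereas that of ITGA4 to ITGA5 (0.588 and 0.493 against 0.728 and 0.556) overlapped.

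**Figure D3:**
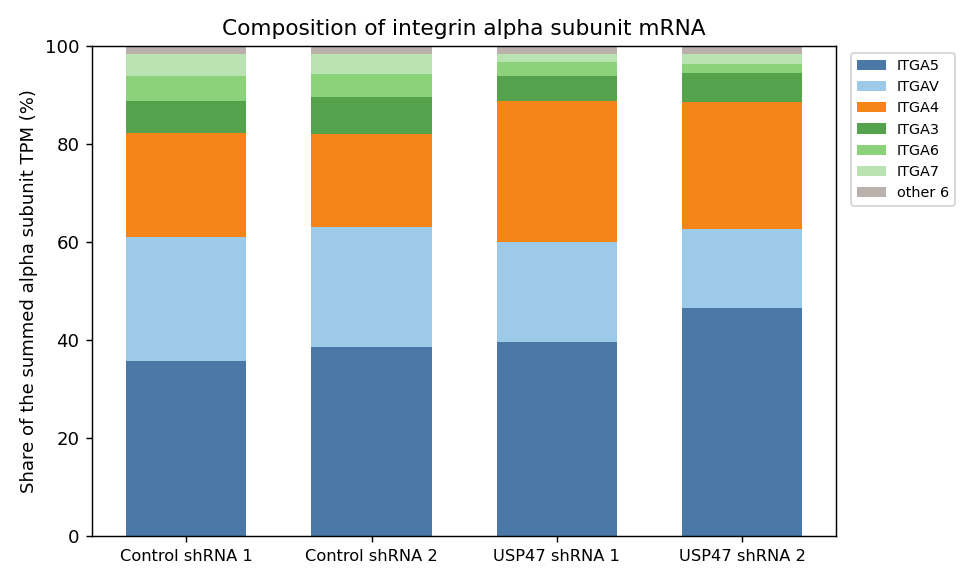
Share of each alpha subunit in the summed alpha subunit TPM (percent), with 1 stacked bar per library. The 3 green segments (ITGA3, ITGA6, ITGA7) sum to about 16.1% in both control bars and to 9.58% and 9.88% in the knockdown bars, while the orange segment (ITGA4) is larger in both knockdown bars.

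Among beta subunits, ITGB8 fell and none of the other 6 tested was called. ITGB8 pairs with ITGAV in a receptor that activates latent TGF-beta. It was counted 155 and 146 times in control and 114 and 59 times in knockdown libraries, or 9.14 and 7.44 CPM against 5.48 and 4.11 CPM. The groups did not overlap, and the log2 fold change was -0.77 (standard error 0.20, edgeR adjusted p = 0.0298). It did not pass with scaling by library size only (edgeR adjusted p = 0.0627), with DESeq2's Wald test (adjusted p = 0.0821), and without control replicate 1 (edgeR adjusted p = 0.258). The gene lies at chr7:20370325-20455377 of GRCh37 on the plus strand.

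ITGB1, the common partner, was at 290 and 266 CPM in control and 282 and 239 CPM in knockdown libraries, overlapping between groups (log2 fold change -0.09, standard error 0.14, edgeR adjusted p = 0.688). It made up 82.3% and 80.1% of the summed beta TPM in control and 80.1% and 72.9% in knockdown libraries. ITGB4, the partner of ITGA6 in hemidesmosomes, was low but without overlap, at 1.83 and 1.89 CPM in control and 2.60 and 4.04 CPM in knockdown libraries (log2 fold change 0.80, standard error 0.27, edgeR adjusted p = 0.0728). Its fold change had the opposite sign to that of ITGA6. ITGB5, a vitronectin receptor subunit, was at 37.2 and 42.3 CPM in control and 41.7 and 60.5 CPM in knockdown libraries. ITGB7, which pairs with ITGA4, was at 13.4 and 14.2 against 17.9 and 17.1 CPM (log2 fold change 0.34, standard error 0.14, edgeR adjusted p = 0.129) and shares 42.3% of its exon bases with ZNF740 on the other strand. ITGB2, the leukocyte beta subunit, and ITGB6, which pairs with ITGAV in epithelia, were under 1.5 CPM in every library and overlapped between groups. Without USP47 shRNA replicate 1, ITGB4 and ITGB5 were called (edgeR adjusted p = 0.000749 and 6.5e-06), and without USP47 shRNA replicate 2 so was ITGB7 (0.0389).

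ITGB3, the vitronectin receptor subunit shared with platelets, was counted 15 and 9 times in control and 1 and 2 times in knockdown libraries and was removed by the filter on low counts. Scaled to library size, the knockdown level was 0.130 of the control level, with an exact 95% interval of 0.0251 to 0.428 that covers counting error only. Fitted with no filter on low counts, its adjusted p was 0.0277 in edgeR, while DESeq2 gave it no adjusted p. An unnamed gene on the same strand shares 33.2% of its exon bases.

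The kindlins, which bind the beta tail beside talin, were at similar levels to each other, with FERMT1 to FERMT2 TPM ratios of 0.834 and 0.903 in control and 0.809 and 1.07 in knockdown libraries. FERMT2 (kindlin-2, chr14:53323986-53419153 of GRCh37, minus strand) fell from 74.9 and 69.9 CPM to 55.3 and 48.5 CPM. The groups did not overlap (log2 fold change -0.48, standard error 0.13, edgeR adjusted p = 0.0326). Without control replicate 1 or 2 its adjusted p in edgeR was 0.389 or 0.190. FERMT1 (kindlin-1, the epithelial form) was at 39.3 and 39.8 CPM in control and 28.2 and 32.7 CPM in knockdown libraries (log2 fold change -0.38, standard error 0.13, edgeR adjusted p = 0.0790), and passed at 0.0431 with library size alone and at 0.00149 without USP47 shRNA replicate 2. The talins did not pass. TLN1 was at 342 and 371 against 392 and 492 CPM and TLN2 at 94.9 and 98.2 against 97.8 and 124 CPM, each highest in knockdown replicate 2, and without USP47 shRNA replicate 1 both were called (edgeR adjusted p = 0.000156 and 0.00719).

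No gene of the ILK complex was called. PARVA (alpha-parvin), which binds ILK to actin, was at 20.6 and 22.3 CPM in control and 22.6 and 23.6 CPM in knockdown libraries (log2 fold change 0.11, standard error 0.14, edgeR adjusted p = 0.615). LIMS1 (PINCH) was at 36.9 and 38.7 against 38.2 and 31.6 CPM, values that are uncertain because LIMS3 and LIMS4 are near copies. PARVB was under 1 CPM in every library. ILK itself, the pseudokinase at the centre of the complex, was counted only 31, 41, 42 and 28 times across the 4 libraries, and 78.5% of its exon bases are shared with genes on the other strand, among them TAF10, which was counted 482 to 628 times. The part of this overlap in the low count of ILK was not tested.

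In the signalling scaffold, 2 of 3 genes were called, both higher. PXN encodes paxillin, the adaptor that docks FAK and vinculin. It was counted 744 and 943 times in control and 1439 and 1045 times in knockdown libraries, or 43.9 and 48.1 CPM against 69.2 and 72.8 CPM. Both knockdown values were above both control values (46.0 ± 2.97 and 71.0 ± 2.56 CPM, SD, n = 2), and its log2 fold change was 0.63 (standard error 0.13, edgeR adjusted p = 0.0102). PXN (chr12:120648242-120703574 of GRCh37, minus strand) shares 27.2% of its exon bases with genes on the other strand, of which PXN-AS1 was counted 50 and 85 times in control and 50 and 50 times in knockdown libraries. BCAR1 encodes p130Cas, the docking protein that FAK and SRC phosphorylate (chr16:75262079-75301951, minus strand). It was at 63.4 and 67.7 CPM in control and 88.0 and 111 CPM in knockdown libraries, without overlap but with a wider spread in the knockdown (65.6 ± 3.01 and 99.5 ± 16.3 CPM, SD, n = 2). Its log2 fold change was 0.60 (standard error 0.14, edgeR adjusted p = 0.0202). PTK2 (FAK), the kinase of this scaffold, was at 80.9 and 81.1 against 95.5 and 89.2 CPM (log2 fold change 0.19, standard error 0.12, edgeR adjusted p = 0.316). Without control replicate 1 the adjusted p in edgeR was 0.236 for PXN and 0.255 for BCAR1, and without control replicate 2 it was 0.0822 and 0.118.

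**Figure D4:**
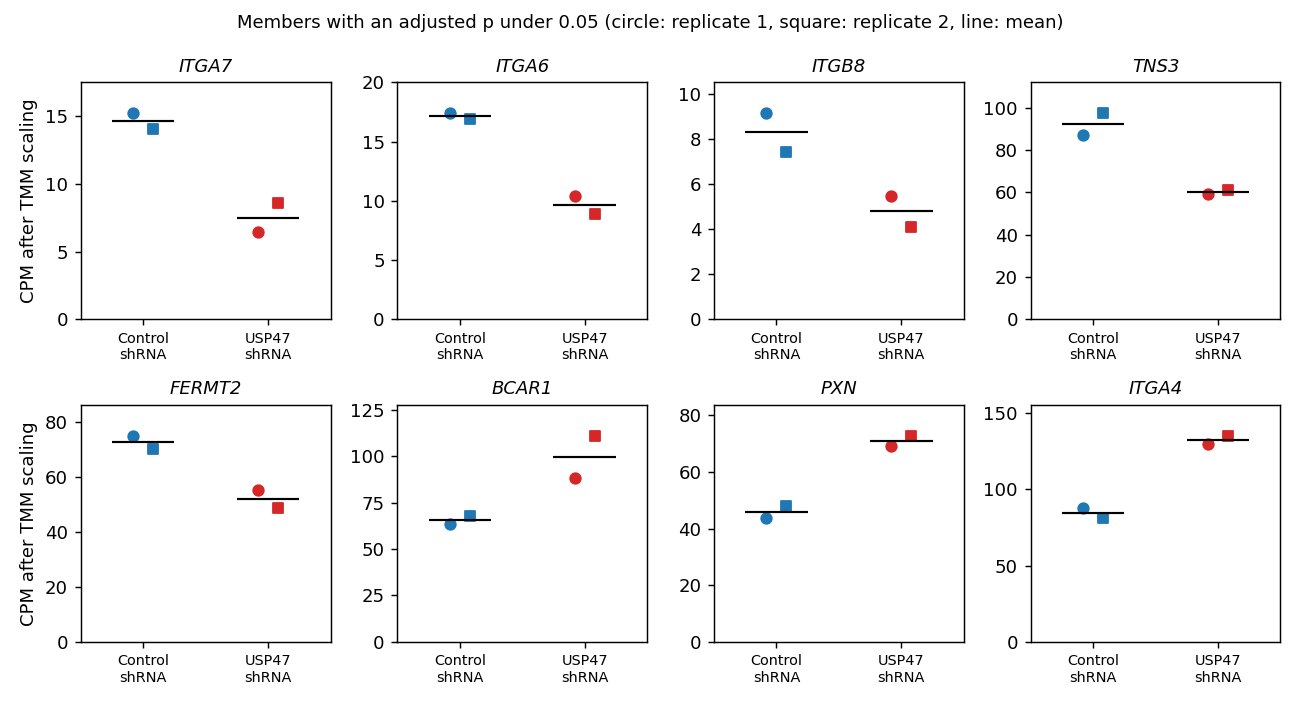
CPM after TMM scaling of the 8 called genes, with 1 point per library (circle replicate 1, square replicate 2) and a line at the group mean, on axes that start at 0. The groups do not overlap in any panel, and BCAR1 shows the widest knockdown spread, from 88.0 to 111 CPM.

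Of the 6 actin linkers, TNS3 fell and the others did not pass. Tensin-3 links the beta tail to actin. TNS3 was counted 1479 and 1910 times in control and 1227 and 878 times in knockdown libraries, or 87.2 and 97.4 CPM against 59.0 and 61.2 CPM. The groups did not overlap (92.3 ± 7.18 and 60.1 ± 1.54 CPM, SD, n = 2), and the log2 fold change was -0.62 (standard error 0.13, edgeR adjusted p = 0.0110). The gene lies at chr7:47314752-47622156 of GRCh37 on the minus strand. Without control replicate 1 or 2 its adjusted p in edgeR was 0.0870 or 0.180. TNS1 was at 8.67 and 8.56 against 5.10 and 7.80 CPM and ZYX (zyxin, which marks adhesions under tension) at 37.1 and 37.6 against 23.3 and 33.7 CPM. Both were lowest in knockdown replicate 1, and without USP47 shRNA replicate 2 both were called (edgeR adjusted p = 0.000969 and 6.1e-06).

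The alpha-actinins, which cross-link actin, were at 231 and 253 against 276 and 350 CPM for ACTN1 and at 199 and 215 against 237 and 287 CPM for ACTN4. Neither overlapped between groups, and neither passed the test (log2 fold changes 0.37 and 0.34, edgeR adjusted p = 0.123 and 0.132). Without USP47 shRNA replicate 1 both were called (edgeR adjusted p = 1.5e-05 and 0.000153). VCL (vinculin) was at 296 and 292 against 297 and 341 CPM (log2 fold change 0.12, standard error 0.14, edgeR adjusted p = 0.587).

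The knockdown libraries differed from each other more in this set than in the genome at large. The median size of the log2 difference between replicates was 0.334 for the 35 tested genes in the knockdown and 0.114 in the control, beside 0.226 and 0.132 over all genes. Knockdown replicate 2, which retained less USP47, was below replicate 1 in 11 of the 35 genes, beside 10281 of all 21932 genes tested. The median difference (replicate 2 minus replicate 1) was 0.276 in the set, beside 0.0266 over all genes. This difference was not tested, since it lies between 2 libraries.

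Other adhesion components outside the set were looked at from a list of 66 genes, of which 57 were tested. Of these, 3 rose and 9 fell, or 21.1% beside 16.1% of all genes tested. CAV1 (caveolin-1, the coat protein of caveolae) fell from 21.9 and 25.6 CPM to 10.9 and 11.4 CPM (log2 fold change -1.09, edgeR adjusted p = 0.00195). CRK, the adaptor that binds phosphorylated BCAR1 and PXN, fell from 44.5 and 45.6 CPM to 24.5 and 24.9 CPM (log2 fold change -0.87, edgeR adjusted p = 0.00257). CRK and its docking proteins therefore had fold changes of opposite sign. PALLD (palladin, a partner of alpha-actinin) fell from 101 and 99.0 CPM to 59.5 and 58.0 CPM, with an adjusted p of 0.00369 in edgeR. The tetraspanin CD9, which associates with laminin-binding integrins, fell by 1.43 on the log2 scale (21.8 and 23.0 against 5.82 and 11.1 CPM, edgeR adjusted p = 0.00474). The syndecans, proteoglycans that act beside integrins, split. SDC1 fell (63.3 and 73.6 against 36.5 and 42.1 CPM) and SDC4, the syndecan of focal adhesions, rose (12.9 and 13.1 against 19.2 and 24.4 CPM), with edgeR adjusted p of 0.00532 and 0.0134. RSU1, which binds PINCH, rose from 77.8 and 83.5 to 115 and 120 CPM, and PDLIM5 rose by a log2 fold change of 0.48 (edgeR adjusted p = 0.0172 and 0.0291). The leukocyte subunit ITGAD, at 51 and 54 counts in control and 25 and 13 in knockdown libraries, also fell. The remaining 3 that fell, SRC, LPP and TGFB1I1, were named after their values were seen and were called in neither fit that left out a control library (edgeR adjusted p = 0.0581 to 0.346), nor were SRC and TGFB1I1 by DESeq2 (adjusted p = 0.0590 and 0.0666). In each fit that left out 1 control library 5 genes of the list were called lower, CAV1, CRK, CD9 and ITGAD among them, and SDC4, RSU1 and PDLIM5 were not called (edgeR adjusted p = 0.0768 to 0.346). Leaving out USP47 shRNA replicate 1 gave 15 higher and 12 lower, beside 32.0% of all genes called, and leaving out USP47 shRNA replicate 2 gave 6 higher and 18 lower, beside 27.4%. PALLD had an edgeR adjusted p of 0.0532 without control replicate 1, and SDC1 had 0.0601 without control replicate 2.

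Ligands of these receptors were taken from a list of 46 genes, 35 of them tested. Of these, 4 rose and 11 fell, or 42.9% beside 16.1% of all genes. The list holds FN1 and FBLN5, which the study itself picked from these libraries, so the count is not independent evidence of a direction. NPNT, nephronectin, fell from 66.2 and 62.4 CPM to 21.8 and 28.6 CPM (log2 fold change -1.36, edgeR adjusted p = 0.000761), and its receptor subunit ITGA8 was under 2.5 CPM in every library. FN1, the ligand of ITGA5 and ITGA4, fell from 73.1 and 73.8 to 26.2 and 32.0 CPM, and VCAM1, the other main ligand of ITGA4, which lay outside the naming rule and was chosen after its values were seen, from 33.7 and 33.4 to 20.3 and 21.5 CPM (edgeR adjusted p = 0.000602 and 0.00823). ITGA4 and these ligands thus changed in opposite directions. The ligand list had 7 genes lower without control replicate 1 and 8 without control replicate 2, where NPNT and FN1 were called in both cases and VCAM1 in neither (edgeR adjusted p = 0.103 and 0.0722).

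Laminin chains, the ligands of ITGA6 and ITGA7, split. LAMA1 fell to 2.74 and 3.55 CPM from 16.9 and 14.9 CPM and LAMA3 to 52.9 and 51.5 from 86.3 and 79.0 CPM, while LAMB2 rose from 67.0 and 67.2 to 111 and 121 CPM (edgeR adjusted p = 0.000419, 0.00779 and 0.00351). COL5A1, a chain of collagen V, rose from 280 and 289 to 471 and 580 CPM (log2 fold change 0.88, edgeR adjusted p = 0.00479). TGFB3, whose latent form is an RGD ligand of the ITGAV receptors, rose by a log2 fold change of 0.67 and MFGE8, another RGD ligand, by 0.54 (edgeR adjusted p = 0.00801 and 0.0319). The RGD protein FBLN5 fell from 8.08 and 6.88 to 2.36 and 2.44 CPM, and CCN3, a matricellular ligand, from 13.4 and 12.1 to 5.77 and 6.48 CPM. Outside the naming rule, and chosen after their values were seen, THBS1, COL1A1, COL1A2 and COL6A2 were, with VCAM1, the remaining genes of the list that fell. Of these, THBS1 (edgeR adjusted p = 0.103 and 0.133 without control replicate 1 or 2) and COL1A1 (0.135 and 0.132) were not called without a control library, and COL1A2 was not called by DESeq2 (adjusted p = 0.192). LAMA1, FBLN5 and CCN3 were called in each fit without 1 control library, whereas LAMA3, LAMB2 and COL5A1 were not called without control replicate 1 (edgeR adjusted p = 0.169, 0.0653 and 0.100), and TGFB3 and MFGE8 were called in neither of these fits (0.125 and 0.323 without replicate 1, 0.104 and 0.156 without replicate 2).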

How the data were processed

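RNA-Seq of HGC-27 cells was taken from 4 libraries, 2 per group, grouped by the labels. For each library the authors deposited a raw count of reads per gene, and FPKM and TPM values that they derived from the counts and an exon length. The authors trimmed bases below a quality score of 20, mapped reads to hg19 with STAR 2.7.5c and used SAMtools 1.9 to discard duplicates and reads of low quality. Removing duplicates without molecular identifiers lowers high counts most. The processing notes name featureCounts and, for the authors' own comparison, DESeq2 1.26.0. The annotation and strand setting are not given in the sources used here. The labels name a stranded library kit and the methods another kit, and the methods speak of triplicates where the labels give duplicates.

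Counts were tested with edgeR 4.0.16 in R 4.3.3 (TMM, filterByExpr, robust quasi-likelihood, both directions, Benjamini-Hochberg over all 21932 genes tested, called at an adjusted p under 0.05). Standard errors were obtained as |log2 fold change| over the square root of F. TPM described levels between genes, marker levels, and the sums, shares and ratios of subunits and kindlins by library, and was not tested. 7SL RNA and 1 unnamed gene took 49.6% to 56.5% of TPM by library. TPM levels and sums set side by side between groups therefore move with their share, while shares and ratios within a library do not. FPKM was not used. Symbols matched 43631 of 63568 identifiers, and positions came from GENCODE lifted to GRCh37. Exon lengths behind the deposited values differ from this annotation for some genes (ITGB3 4913 against 6829 bases). Shares of exon bases held with other genes may therefore differ in the counted gene models. Promoter windows came from RefSeq on GRCh38.p14.

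The members and lists were chosen with earlier results of these data known. Named genes were USP47, all 37 genes of the set, and the up to 6 genes with the smallest p in each direction among called genes of each other list. Alternatives were DESeq2 1.42.0, legacy quasi-likelihood, 2 other scalings, 2 other filters, the replicate number as a block, calls restricted to log2 fold changes of at least 1 in size, removal of mitochondrial genes, 7SL copies and the most counted unnamed gene, and each library left out. Counting intervals cover counting error only, and with 2 libraries per group a gene's spread rests largely on the spread shared between genes.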

Additional observations from a re-analysis of the deposited data

How the results depend on the processing

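The 8 called genes of the set kept their direction in all 12 other fits. Most calls were lost when a control library was left out, while the log2 fold changes stayed of similar size and the standard errors grew (ITGA4 0.71 and 0.59 instead of 0.65, with standard errors of 0.28 and 0.26 instead of 0.13). Without control replicate 1 only ITGA7 was called in the set, and without control replicate 2 ITGA6, ITGA7, ITGB8 and ITGB3, which the main filter on low counts removed, were. In such fits the lone library is assumed to vary like the other group. Leaving out 1 library at a time, calls in the set ranged from 0 to 11 higher and 1 to 11 lower, among integrin subunits from 0 to 5 and 1 to 6, among adaptors and linkers from 0 to 6 and 0 to 5, among other adhesion components from 0 to 15 and 5 to 18, among ligands from 0 to 8 and 7 to 13, and among all genes from 324 to 3773 and 909 to 3576, while the log2 fold change of USP47 ranged from -1.75 to -1.01.

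Same-numbered libraries deviated together with a correlation of 0.325 across genes, but 2 pairs share only a number. With the replicate number as a block, 10 genes of the set were higher and 10 lower, with 5 higher and 5 lower among integrin subunits and likewise 5 and 5 among adaptors and linkers, 14 higher and 16 lower among other adhesion components, and 3529 higher and 3890 lower among all genes. With a minimum log2 fold change of 1, 0 genes of the set were called by edgeR in either direction (0 and 0 for subunits, 0 and 0 for adaptors). Without this minimum, 17 of the 35 tested genes of the set had an unadjusted edgeR p under 0.05, beside 7035 of all 21932 genes tested. DESeq2 called 7 of the set. With the minimum, 0 other adhesion components were higher and 3 lower, 0 ligands higher and 6 lower, and 327 of all genes higher and 889 lower. DESeq2's Wald test called 5 other adhesion components higher and 1174 genes lower. With library size alone 881 genes were higher, 31.5% of those called instead of 40.5%, and the median gene lay at -0.072.

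Some uncalled genes changed sign. With library size alone ITGB2 was at -0.0013, ITGB6 at -0.044 and ILK at -0.041, and with no filter ITGB6 was at -0.011 and ILK at -0.010. Leaving out 1 library, the log2 fold change ranged from -0.38 to 0.047 for ITGA3, -0.088 to 1.49 for ITGA8, -0.21 to 0.027 for ITGB1, -0.46 to 0.80 for ITGB2, -0.33 to 0.40 for ITGB6, -0.072 to 0.12 for ILK and -0.25 to 0.019 for LIMS1. The cause of these shifts was not tested.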
